A study of Mus musculus with 6 samples.

Results

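Cathepsins are the proteases of the lysosome, and 10 of their genes in B16F10 mouse melanoma cells are described here: Ctsa, Ctsb, Ctsc, Ctsd, Ctsf, Ctsh, Ctsk, Ctsl, Ctss and Ctsz. They were taken by gene name from the table of 51912 genes, and all 10 were present with 1 row each. RNA was sequenced from cells in which the annexin A10 gene was disrupted (genotype ANXA10-/-, called A10KO, replicates 1, 13 and 14) and from wild-type cells (WT, replicates 1, 2 and 3). B16F10 is a pigmented line that spreads to the lung in mice. No treatment or culture condition is given in the labels. The submitters describe each genotype as 1 cell line and do not say whether the replicate numbers stand for clones, cultures or repeated preparations, so p-values measure the spread between these libraries only, which may be technical.

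Values are TPM, the abundance of a transcript per length and relative to the library's total, and can be compared between genes. Sequencing depth cannot be read from TPM. The number of genes at 1 TPM or more was 11889 to 12236 per library. Anxa10 was listed at 0 in all 6 libraries, WT included, and so gave no check of the labels. The mitochondrial genome's own transcripts held 7.93%, 14.7% and 7.37% of all TPM in the A10KO libraries, with replicate 13 the highest, against 6.32% to 6.56% in WT. Melanocyte genes marked every library, with Mlana at 2419 to 3424 TPM in A10KO and 2099 to 2580 TPM in WT. Of the melanocyte markers, Oca2 and Tyr varied most among the A10KO libraries, relative to their level. Oca2 stood at 0.4, 4.85 and 11.33 TPM in A10KO replicates 1, 13 and 14, against 8.05 to 11.39 TPM in WT. Tyr stood at 13.38, 25.02 and 43.8 TPM in A10KO, against 22.15 to 24.18 TPM in WT. The other markers varied less, such as Dct at 1825.25, 1670.58 and 2072.77 TPM in A10KO. Mlana was highest in A10KO replicate 1, where Oca2 and Tyr were lowest. In bulk RNA, fewer cells of a type and less RNA per cell cannot be told apart.

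Most cathepsins are cysteine proteases related to papain. They are made as inactive precursors in the endoplasmic reticulum, carried to the lysosome by mannose 6-phosphate receptors and activated there by removal of a propeptide. Cathepsin D is an aspartic protease, and cathepsin A is a serine carboxypeptidase that also protects other lysosomal enzymes. Cystatins inhibit the cysteine members. In tumours, cathepsins that leave the cell can cut matrix proteins, and cathepsins B and L are the members most often studied there.

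The coding sequences were searched with a preset pattern of the papain-type site: Cys-Gly, then Ser, Ala or Thr, then Cys, then Trp or Tyr. Part of the likeness between the stretches below is therefore fixed by that pattern. A script searched the longest complete coding sequence of each member (GENCODE M21, GRCm38) for the stretch around the catalytic cysteine, and did not find it in Ctsa and Ctsd, whose catalytic residues differ. These 27 coding bases are shown for 7 members to display what cysteine cathepsins share, with the cysteine codon in capitals.
Ctsb: tcctgcggctctTGTtgggcatttggg
Ctsl: cagtgcgggtctTGTtgggcgtttagc
Ctsz: tactgtggttccTGCtgggcccacggc
Ctsh: gcctgtggcagcTGCtggactttctct
Ctsc: tcttgtggaagcTGCtactcatttgcc
Ctsk: cagtgtggttccTGTtgggctttcagc
Ctss: tcttgtggtgccTGCtgggctttcagt
Of the 27 bases, Ctsl shared 20 with Ctsb. Ctsz, Ctsk and Ctss shared 17 each, and Ctsh and Ctsc 15 each. The cysteine was codon 108 in Ctsb, 138 in Ctsl and 94 in Ctsz.

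Ctsd and Ctsz were the most abundant cathepsin transcripts in both groups, and Ctsk and Ctss were close to 0. In A10KO the order by mean TPM was Ctsd, Ctsz, Ctsa, Ctsb, Ctsl, Ctsc, Ctsh, Ctsf, Ctsk and Ctss. In WT it was the same except that Ctsb stood above Ctsa. Neighbours in that order overlapped between libraries for Ctsa and Ctsb and for Ctsk and Ctss in both groups, and for Ctsh and Ctsf in A10KO. All other neighbours were separated in all 3 libraries of a group. The 5 most abundant members made up 97.9% to 98.5% of the summed cathepsin TPM in A10KO and 97.9% to 98.2% in WT.

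**Figure D1:**
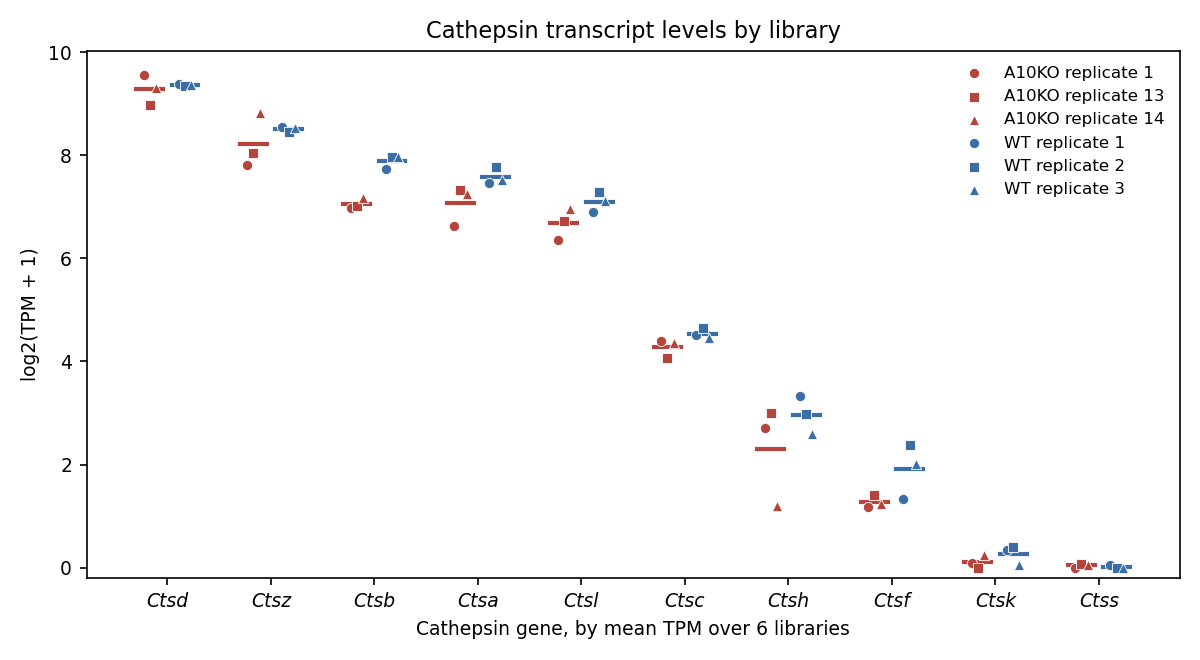
Level of each of the 10 cathepsin transcripts as log2(TPM + 1) on the vertical axis, with genes in order of mean TPM on the horizontal axis. Points are libraries (A10KO red and left, WT blue and right), bars are group means (n = 3 each). The groups are separated for Ctsb, Ctsa and Ctsc and overlap for the others.

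Ctsb had the lowest p of the family and was lower in every A10KO library. Ctsb (ENSMUSG00000021939, GRCm38 chromosome 14, 63122462 to 63145923, plus strand) encodes cathepsin B, which cuts both within proteins and from their carboxyl end. Its level was 125.97, 128.36 and 142.75 TPM in A10KO replicates 1, 13 and 14, against 211.35, 250.49 and 248.77 TPM in WT replicates 1, 2 and 3. The groups did not overlap, and the 3 A10KO libraries lay close together. Means were 132 ± 9.08 TPM in A10KO and 237 ± 22.1 TPM in WT (SD, n = 3 each), a ratio of 0.559. On the log2(TPM + 1) scale the change was -0.83 (SE 0.12, 95% interval -1.12 to -0.55), which is 0.461 to 0.683 of the WT level. The limma p before adjustment was 0.000176, rank 17 of 12068 genes tested, and the Benjamini-Hochberg adjusted p over all genes was 0.125, above the threshold of 0.05. Adjusted p-values ran from 0.0771 to 0.604 over the alternative settings, and the log2 change from -0.91 to -0.77. Exons of Ctsb overlap those of Fdft1, a cholesterol synthesis gene on the other strand, and the strand setting of the counting is not given in the sources used here. Fdft1 stood at 27.11, 17.63 and 43.32 TPM in A10KO and at 41.84, 46.54 and 40.77 TPM in WT. Its part in the Ctsb values was not tested.

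Ctsa was also lower in each A10KO library than in any WT library on the TPM scale, but not with mitochondrial transcripts removed or under quantile normalization. The gene (ENSMUSG00000017760, chromosome 2, 164832873 to 164841032) encodes cathepsin A, also called protective protein. It stood at 97.83, 159.45 and 151.36 TPM in A10KO replicates 1, 13 and 14, against 175.43, 219.18 and 183.57 TPM in WT. Replicate 1 was the lowest A10KO library, and replicate 13 was nearest to WT. The log2 change was -0.52 (SE 0.20, 95% interval -0.996 to -0.05, limma adjusted p = 0.522), and without A10KO replicate 1 it was -0.30. Exons of Pltp and Neurl2 on the other strand overlap those of Ctsa. Pltp, a phospholipid transfer protein gene, stood at 37.03, 75.97 and 51.77 TPM in A10KO and at 83.42, 104.86 and 81.14 TPM in WT. Neurl2 stood at 7.38, 9.92 and 12 TPM in A10KO and at 12.49, 16.97 and 12.74 TPM in WT. The part of Pltp and Neurl2 in the Ctsa values was not tested.

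Ctsl and Ctsz, the other abundant cysteine cathepsins, overlapped between the groups. Ctsl (ENSMUSG00000021477, chromosome 13, 64359337 to 64370890), which encodes the endopeptidase cathepsin L, stood at 81.4, 105.56 and 123.69 TPM in A10KO and at 119.16, 154.96 and 137.07 TPM in WT. Only A10KO replicate 14 reached into the WT range. The log2 change of Ctsl was -0.41 (SE 0.18, 95% interval -0.83 to 0.01, limma adjusted p = 0.566), and without A10KO replicate 1 it was -0.25. Exons of Gm49230 on the same strand and Gm47123 on the other strand overlap Ctsl in GENCODE M21. Neither name is among the deposited values, and their part in the Ctsl values was not tested. Ctsz (ENSMUSG00000016256, chromosome 2, 174427493 to 174439039) encodes cathepsin Z, a carboxypeptidase. It stood at 225.44, 262.15 and 453.61 TPM in A10KO replicates 1, 13 and 14, against 375.36, 351.73 and 368.05 TPM in WT. A10KO replicates 1 and 13 lay below WT and replicate 14 above it. The log2 change of Ctsz was -0.28 (SE 0.24, 95% interval -0.86 to 0.29, limma adjusted p = 0.772), and it was -0.58 without A10KO replicate 14 and -0.08 without A10KO replicate 1. Nelfcd, whose exons overlap those of Ctsz on the other strand, had a log2 change of -0.21. Its part in the Ctsz values was not tested.

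Ctsd, the most abundant member, had group means that differed by less than the spread of the A10KO libraries. The gene (ENSMUSG00000007891, chromosome 7, 142375911 to 142388038) stood at 751.05, 505.78 and 629.71 TPM in A10KO replicates 1, 13 and 14, against 666.51, 654.71 and 662.39 TPM in WT. A10KO replicate 1 was above WT and the other two below it, whereas the WT libraries lay close together. The log2 change was -0.09 (SE 0.16, 95% interval -0.46 to 0.28, limma adjusted p = 0.887), an interval that runs from 0.725 to 1.22 of the WT level. Without A10KO replicate 13 the log2 change was 0.06. Exons of Gm49369 on the same strand overlap Ctsd in GENCODE M21, but no gene of that name is among the deposited values. Its part in the Ctsd values was not tested.

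Ctsc, Ctsh and Ctsf were expressed at low to moderate levels. Ctsc (ENSMUSG00000030560, chromosome 7, 88278085 to 88310888) encodes dipeptidyl peptidase 1, which activates serine proteases of leukocyte granules. It stood at 20.18, 15.78 and 19.61 TPM in A10KO and at 21.98, 24 and 20.81 TPM in WT. The groups did not overlap, but A10KO replicate 1 and WT replicate 3 differed by under 1 TPM, and the log2 change of -0.26 (SE 0.15, 95% interval -0.62 to 0.10) had a limma adjusted p = 0.672. The log2 change of Ctsc was -0.15 without A10KO replicate 13 and -0.14 with array quality weights. Ctsh (ENSMUSG00000032359, chromosome 9, 90054152 to 90076089), an aminopeptidase gene, stood at 5.51, 6.96 and 1.29 TPM in A10KO and at 9.05, 6.87 and 5.02 TPM in WT. Replicate 14 was the lowest, and without it the log2 change of -0.67 (SE 0.47, adjusted p = 0.733) was -0.12, and without A10KO replicate 13 it was -1.02. Ctsf (ENSMUSG00000083282, chromosome 19, 4855130 to 4860918), which encodes the cysteine protease cathepsin F, stood at 1.26, 1.67 and 1.36 TPM in A10KO and at 1.52, 4.21 and 3.01 TPM in WT. The A10KO libraries lay close together and WT replicate 1 lay among them, with a log2 change of -0.63 (SE 0.30, adjusted p = 0.588) that was -0.39 without WT replicate 2.

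Ctsk and Ctss were under 1 TPM in every library and were not tested. Ctsk (ENSMUSG00000028111, chromosome 3, 95499256 to 95509362), which encodes the collagen-degrading protease of osteoclasts, was listed at 0.07, 0 and 0.19 TPM in A10KO and at 0.27, 0.32 and 0.04 TPM in WT. Ctss (ENSMUSG00000038642, chromosome 3, 95526786 to 95556403), the protease that trims the invariant chain of MHC class II in antigen-presenting cells, was listed at 0, 0.05 and 0.04 TPM in A10KO and at 0.04, 0 and 0 TPM in WT. The groups overlapped for each gene. Of 13 further cathepsin genes, 11 were listed at 0 in every library. Ctso did not exceed 0.06 TPM in A10KO or 0.09 TPM in WT, and Ctse reached 0.03 TPM in A10KO replicate 13 and was at 0 elsewhere.

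**Figure D2:**
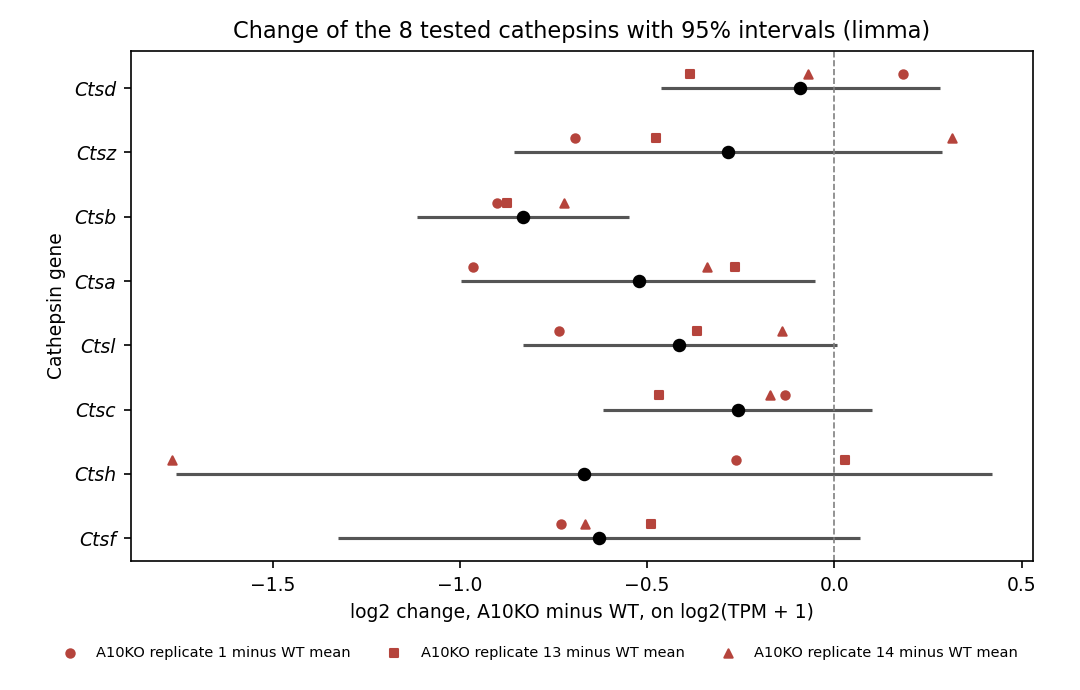
Log2 change of each tested cathepsin, A10KO minus WT on the log2(TPM + 1) scale (horizontal axis), with genes on the vertical axis. Black points are limma estimates with 95% intervals (n = 3 each), and red symbols are the A10KO libraries minus the WT mean. Only the intervals of Ctsb and Ctsa lie wholly below 0, and the Ctsz symbols lie on both sides of 0.

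Counted together, 0 of the 8 tested cathepsins passed the limma adjusted threshold, against 0.0414% of all genes tested (5 of 12068). At an unadjusted p under 0.05, 2 of 8 were lower (Ctsb and Ctsa) and 0 higher, against 6.27% of all genes that were lower. The A10KO libraries lay wholly below the WT libraries for 3 of 8 (37.5%), against 11.5% of all genes. Under quantile normalization 1 of 8 (12.5%) was so placed, against 9.21% of all genes, a share near the background. It was 2 of 8 (25%) under trimmed-mean scaling, median-of-ratios scaling and with mitochondrial transcripts removed, against 9.38%, 8.91% and 8.41% of all genes in that order. Ctsb was among them each time. Ctsa overlapped under quantile normalization and with mitochondrial transcripts removed, and Ctsc under all 3 scalings. All 8 log2 changes were below 0, against 56.5% of all genes, and their median was -0.47 against -0.04. Medians of the members against the WT mean were -0.71, -0.43 and -0.26 in A10KO replicates 1, 13 and 14, beside -0.12, 0.02 and -0.03 over all genes. Other lysosomal lists, described below, also held genes placed wholly below WT: 3 of 6 peptidases and 11 of 31 non-protease hydrolases. It was so for 3 of 12 maturation and sorting genes, 3 of 13 membrane genes and 2 of 16 proton pump genes. Those 3 maturation and sorting genes were Grn, Gga2 and Lgmn, and Lgmn is also counted among the peptidases. At an unadjusted limma p under 0.05, 3 of the 6 peptidases and 7 of the 31 hydrolases were lower. So were 2 of 12 maturation and sorting genes (Grn and Lgmn), 1 of 13 membrane and 0 of 16 proton pump genes. The members were chosen with earlier results known, so these counts are a description of the set.

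A10KO libraries varied more among themselves than WT libraries for most cathepsins, as they did for most genes tested. The SD of log2(TPM + 1) was larger in A10KO for 6 of 8 members (75%), against 78.2% of all genes tested. For Ctsd it was 0.285 in A10KO and 0.0131 in WT, and for Ctsz 0.529 in A10KO and 0.0480 in WT. Ctsb and Ctsf were the exceptions, with 0.0966 in A10KO and 0.138 in WT for Ctsb.

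The make-up of the set differed from library to library. Summed over the 10 genes, cathepsins reached 1309, 1186 and 1524 TPM in A10KO replicates 1, 13 and 14, against 1581, 1666 and 1629 TPM in WT. On the TPM scale all 3 A10KO sums lay below the WT sums, and the sums were not computed under the other scalings. Ctsd took 57.4% of the sum in A10KO replicate 1, above the 39.3% to 42.7% of the other 5 libraries. Ctsz took 29.8% in A10KO replicate 14 and 17.2% to 23.7% elsewhere. Ctsb took 9.63%, 10.8% and 9.37% in A10KO replicates 1, 13 and 14, against 13.4%, 15.03% and 15.3% in WT, with no overlap.

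**Figure D3:**
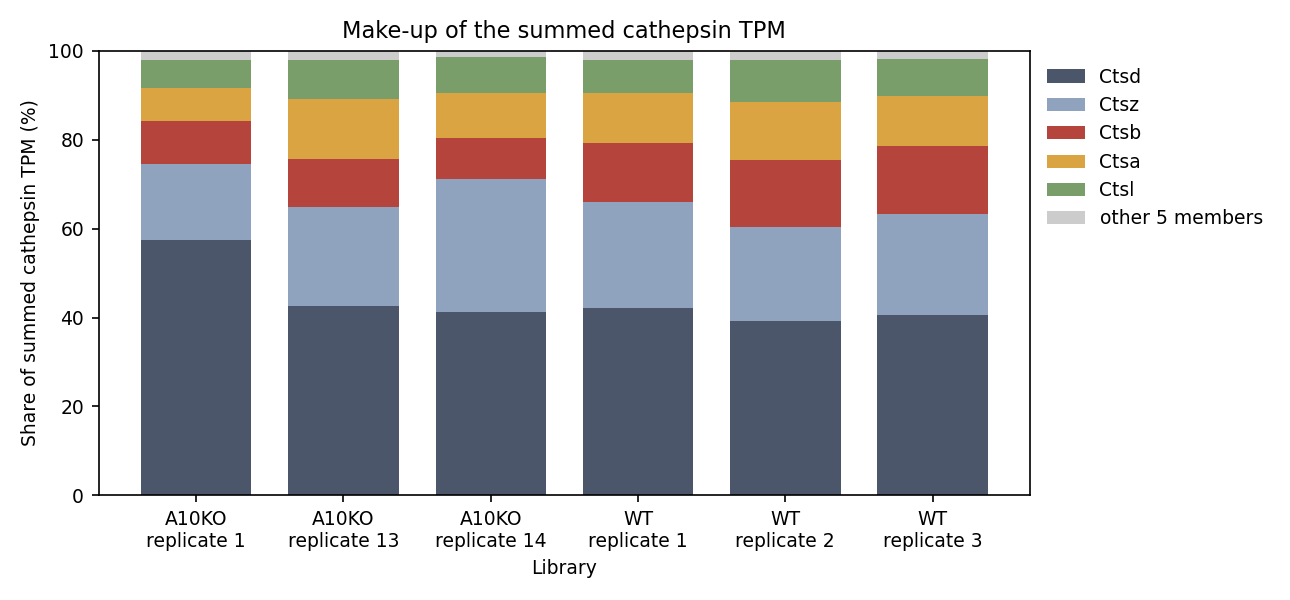
Share of each cathepsin in the summed TPM of the 10 genes (vertical axis, percent) in each library (horizontal axis, A10KO left, WT right). The Ctsb band is 9.37% to 10.8% in A10KO and 13.4% to 15.3% in WT, and the Ctsd band is largest in A10KO replicate 1.

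Ratios of transcripts within a library do not depend on a single factor applied to the whole library, but quantile normalization can change them. The ratio of Ctsb to Ctsd was 0.168, 0.254 and 0.227 in A10KO replicates 1, 13 and 14, against 0.317, 0.383 and 0.376 in WT. Ctsb over Ctsl was 1.55, 1.22 and 1.15 in A10KO and 1.77, 1.62 and 1.82 in WT. Both ratios were separated between the groups. By contrast, Ctsl over Ctsd was 0.108 to 0.209 in A10KO and 0.179 to 0.237 in WT and overlapped, as did Ctsz over Ctsd at 0.3002 to 0.720 in A10KO and 0.537 to 0.563 in WT. These ratios were chosen after the levels were seen and were not tested.

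Of the cystatins, Cst3 stood above Ctsb in every library, and Cst6 was far lower. Cst3 encodes cystatin C, the secreted inhibitor of cysteine cathepsins, and stood at 354.04, 252.54 and 387.58 TPM in A10KO and at 413.52, 426.25 and 424.19 TPM in WT. Its log2 change was -0.37 (SE 0.17, limma adjusted p = 0.577), and the groups did not overlap. Cstb, which encodes the cytosolic cystatin B, stood at 197.39, 175.27 and 214.19 TPM in A10KO and at 222.1, 208.36 and 217.48 TPM in WT, with a log2 change of -0.15 (adjusted p = 0.760). Cst6 had a log2 change of -0.15 as well, and the other 11 inhibitor genes found in the table were under 1 TPM in every library. Ctsb over Cstb was 0.638, 0.732 and 0.667 in A10KO, against 0.952, 1.20 and 1.14 in WT. Ctsb over Cst3 was 0.356, 0.508 and 0.368 in A10KO, against 0.511, 0.588 and 0.586 in WT, with A10KO replicate 13 close to WT replicate 1.

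**Figure D4:**
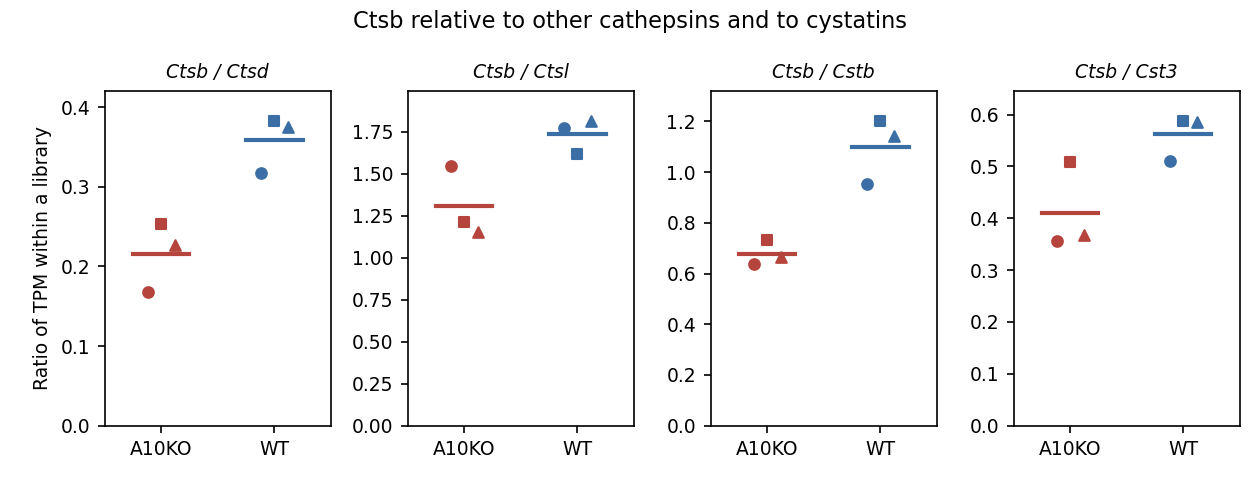
Ratio of Ctsb TPM to that of Ctsd, Ctsl, Cstb and Cst3 within each library (vertical axes, each from 0). Points are libraries, A10KO left and WT right, and bars are group means (n = 3 each). The groups are separated in all 4 panels, narrowly so for Cst3 (0.508 at most in A10KO and 0.511 at least in WT).

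Other lysosomal peptidases are described beside the cathepsins. Of 6 tested, 0 were called and all 6 log2 changes were below 0, with a median log2 change of -0.27. Over all genes tested, 0.0414% were called, 56.5% of log2 changes were below 0 and the median was -0.04. With so few genes called, 0 called in this or a later list is near that background. Scpep1, a serine carboxypeptidase gene of the same family as Ctsa, stood at 157.26, 146.62 and 165.46 TPM in A10KO and at 204.6, 231.74 and 210.24 TPM in WT (log2 change -0.46, SE 0.11, limma adjusted p = 0.314). Lgmn encodes legumain, which processes cathepsins to their chain forms, and stood at 37.07, 46.02 and 56.04 TPM in A10KO and at 59.31, 73.24 and 62.8 TPM in WT (-0.49, adjusted p = 0.502). Prcp, a further carboxypeptidase gene, had a log2 change of -0.44. Tpp1, a tripeptidyl peptidase gene, stood at 78.4 ± 21 TPM in A10KO and 78.4 ± 6.22 TPM in WT (SD, n = 3 each).

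Genes of enzyme maturation and sorting to the lysosome had log2 changes on both sides of 0, with 4 above and 8 below 0 among 12 tested. Thus 66.7% were below 0, against 56.5% of all genes, with a median of -0.14 and 0 called. Lgmn is counted in this list as well as among the peptidases. Grn, which encodes the lysosomal glycoprotein progranulin, stood at 139.65, 152.03 and 123.22 TPM in A10KO and at 186.55, 208.45 and 192.95 TPM in WT (log2 change -0.50, SE 0.12, limma adjusted p = 0.308). M6pr, a mannose 6-phosphate receptor gene, stood at 146.15, 127.71 and 142 TPM in A10KO and at 137.76, 139.44 and 140.55 TPM in WT. Gga3, an adaptor gene, had a log2 change of 0.62 (adjusted p = 0.578) with A10KO replicate 13 at 32.67 TPM. Psap, the precursor of the saposins, had one of -0.18.

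Non-protease hydrolases had a median log2 change of -0.11 over 31 tested genes, with 0 called. Of these, 9 were above 0 and 22 (71.0%) below, against 56.5% of all genes below 0. Gla, the alpha-galactosidase gene, had the lowest p of that list, at 3.77, 2.97 and 4.19 TPM in A10KO and 6.79, 6.95 and 6.46 TPM in WT (log2 change -0.74, adjusted p = 0.323). Naglu and Galns, of glycosaminoglycan breakdown, had log2 changes of -0.65 and -0.44, whereas Hexa, at 129 TPM in A10KO and 136 TPM in WT, had -0.08. Among 13 lysosome membrane genes, 2 were above and 11 (84.6%) below 0 with a median of -0.18 and 0 called. Lamp1 stood at 275.97, 429.96 and 401.43 TPM in A10KO, on both sides of the 337.98 to 344.33 TPM in WT. Its log2 change was 0.09 (limma adjusted p = 0.9055). Cd63 stood at 736 TPM in A10KO and 833 TPM in WT. For the proton pump that acidifies the lysosome, 10 of 16 genes were above 0 and 6 (37.5%) below, with a median of 0.04 and 0 called.

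**Figure D5:**
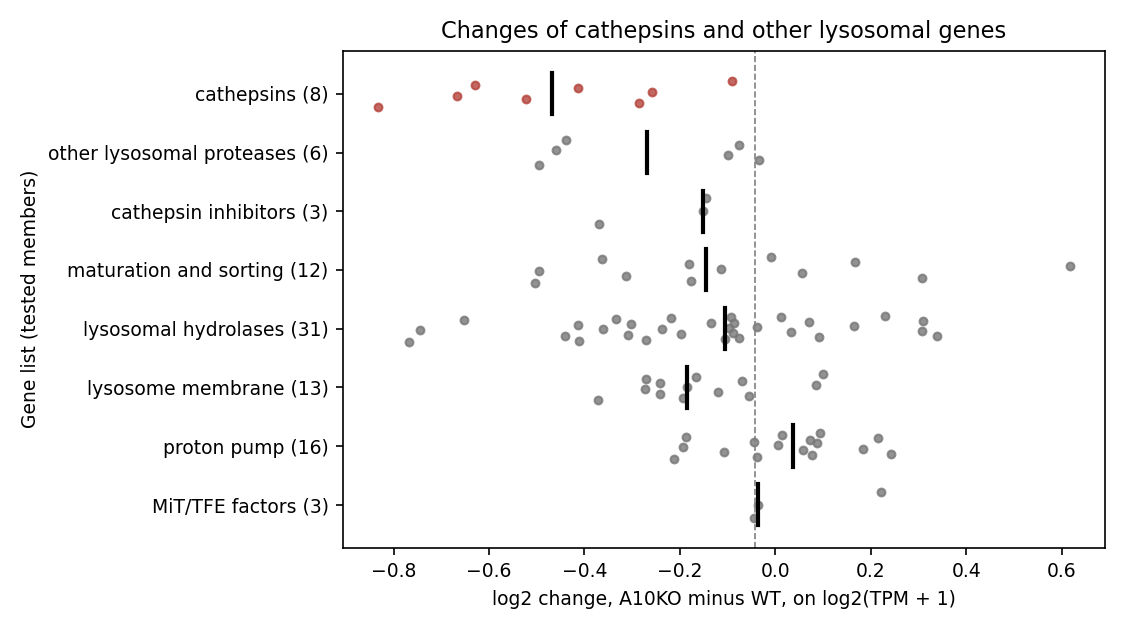
Log2 change, A10KO minus WT on the log2(TPM + 1) scale (horizontal axis), of each tested gene in 8 lists (vertical axis, tested members in brackets). Points are genes, black bars list medians, and the dashed line the median over all tested genes (-0.04). The cathepsin median is -0.47 and the proton pump median 0.04.

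The MiT/TFE transcription factors, which bind an E-box in the promoters of many lysosomal genes, showed no called change. Mitf, the melanocyte member, stood at 52.22, 80.33 and 69.67 TPM in A10KO and at 55.95, 58.23 and 56.21 TPM in WT (log2 change 0.22, limma adjusted p = 0.749). Tfe3 had a log2 change of -0.04 and Tfeb of -0.04, and Tfec did not exceed 0.08 TPM. Promoter sequences are shown to describe where this E-box lies near cathepsin genes, and a link to their changes was not tested. RefSeq windows (GRCm38.p6, 250 bases before to 50 after a gene start) were given for 8 of the 10 members, and Ctsb and Ctsh are named only. The E-box CACGTG, which reads the same on both strands, was present for 4 of these 8 (Ctsa, Ctsd, Ctsf and Ctsl; 50%), against 8.09% of 27025 genes. Its longer form TCACGTGA, which holds CACGTG within it and also reads the same on both strands, was present for Ctsa and Ctsd (25%), against 1.12% of genes. In Ctsd the E-boxes began at -245 and -98 from the gene start, and in the second Ctsa window at -12 and 5. In the sequences, capitals mark CACGTG or TCACGTGA.
Ctsd, chr7:142387778-142388077, minus strand: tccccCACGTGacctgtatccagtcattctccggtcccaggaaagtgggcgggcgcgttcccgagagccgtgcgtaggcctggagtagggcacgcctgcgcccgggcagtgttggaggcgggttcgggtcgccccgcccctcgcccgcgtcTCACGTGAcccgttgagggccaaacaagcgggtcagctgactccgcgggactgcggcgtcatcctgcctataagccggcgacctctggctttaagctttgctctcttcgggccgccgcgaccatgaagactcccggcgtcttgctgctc
Ctsa, chr2:164833523-164833822, plus strand: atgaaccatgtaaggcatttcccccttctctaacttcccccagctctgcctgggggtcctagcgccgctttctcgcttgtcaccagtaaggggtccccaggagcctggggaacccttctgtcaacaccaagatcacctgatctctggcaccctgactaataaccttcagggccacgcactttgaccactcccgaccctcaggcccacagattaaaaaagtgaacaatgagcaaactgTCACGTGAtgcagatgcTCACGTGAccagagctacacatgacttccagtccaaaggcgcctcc
Ctsz, with no E-box in its window, chr2:174438990-174439289, minus strand: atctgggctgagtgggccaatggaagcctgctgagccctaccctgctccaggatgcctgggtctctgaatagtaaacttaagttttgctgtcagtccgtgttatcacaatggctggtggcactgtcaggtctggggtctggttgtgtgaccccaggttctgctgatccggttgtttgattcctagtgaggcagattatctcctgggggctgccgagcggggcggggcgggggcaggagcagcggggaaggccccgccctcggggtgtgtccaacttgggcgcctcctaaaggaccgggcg
The windows of Ctsc, Ctsk, Ctss and Ctsz held none, nor did the first Ctsa window (chr2:164832622-164832921), so by window the E-box was present in 4 of 9 (44.4%), against 7.15% of all windows. Ctsd and Ctsa, both with the longer form, had log2 changes of -0.09 and -0.52. The E-box was also present for 6 of 11 maturation and sorting genes with a window (54.5%), 4 of 11 proton pump genes (36.4%) and 6 of 26 hydrolase genes (23.1%). A match is a run of letters and not a measured binding site.

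Genes of other cell types that express cathepsins were low. Of 13 macrophage markers, 10 were under 1 TPM in every library. Tyrobp and Adgre1 were at 0 in all 6, as was Itgam in 1 of the 2 rows that carry its name (the row used here), and Ptprc did not exceed 0.01 TPM. Their summed level was 1.43 to 3.17 TPM in A10KO and 4.03 to 6.64 TPM in WT. Cd68, a lysosomal membrane glycoprotein gene and the only one of them tested, stood at 1.29, 0.89 and 0.86 TPM in A10KO and at 2.42, 4.7 and 4.8 TPM in WT (log2 change -1.27, SE 0.27, limma adjusted p = 0.247). It was the largest part of the macrophage sum in every WT library. Laptm5 was also lower, at no more than 0.2 TPM in A10KO and 0.34 to 0.75 TPM in WT. For all other macrophage markers, Lyz2 and Fcer1g included, the groups overlapped. Of 9 fibroblast markers 5 were under 1 TPM in every library, and their sum was 4.58 to 7.7 TPM in A10KO and 7.98 to 10 TPM in WT. In the class II antigen pathway, in which cathepsin S acts, Ciita did not exceed 0.02 TPM and Cd74 was 0.46 to 2.47 TPM in A10KO and 0.09 to 0.77 TPM in WT. H2-DMb1, a class II peptide-loading gene, stood at 3.31, 7.03 and 2.75 TPM in A10KO and at 6.61, 9.22 and 9.89 TPM in WT (log2 change -0.90, limma adjusted p = 0.5002). Ifi30, a thiol reductase gene of the lysosome, stood at 60.3 ± 8.52 TPM in A10KO and 74.3 ± 8.39 TPM in WT (SD, n = 3 each). Median log2 changes were 0.64 over 10 mitochondrially encoded transcripts and -0.46 over 11 immediate early genes. In each list 0 were called, against 0.0414% of all genes. With mitochondrial transcripts removed and the rest rescaled, the log2 change of Ctsb was -0.77. The median over the tested cathepsins was then -0.40, against -0.47 in the main fit. The part of mitochondrial transcripts, immediate early genes and the markers above in these results was not tested.

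Genes with a profile like that of Ctsb were ranked by the mean absolute difference in log2(TPM + 1), centred on the WT mean, over the 6 libraries and 9369 genes that averaged 5 TPM or more. The nearest were Capn1 (0.0822), a calpain protease gene, Pxmp4 (0.0880), a peroxisomal membrane protein gene, Gatsl3 (0.0931), Mov10 (0.0943), an RNA helicase gene, and Ifi35 (0.0959), an interferon-induced gene. Capn1 stood at 5.97, 6.27 and 7.51 TPM in A10KO and at 11.48, 13.34 and 11.17 TPM in WT. Its log2 change was -0.78 (limma adjusted p = 0.259). These genes were picked for their closeness to Ctsb in the same libraries, which fixes a similar change. Among the cathepsins, Ctsa came nearest to Ctsb, at rank 241 with a difference of 0.222, followed by Ctsl at rank 360 with 0.243. Ctsz was at rank 1472, Ctsc at 1501 and Ctsd at 3554, and Ctsh was the farthest, at rank 7929 with a difference of 0.606.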

How the data were processed

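The 3 A10KO and 3 WT libraries came from Trizol-extracted total RNA digested with DNase I, per the labels' protocols. The tools fastp, HISAT and RSEM and the build GRCm38.p5 are named in the submitters' processing notes, with roles, versions and settings not given in the sources used here. The deposited values are TPM by the authors, although their table is presented as counts: they carry decimals and sum to 969834 to 985045 per library. Each library's own table equalled the series table (6 of 6), and no 2 libraries were identical. Depth is unknown, so no counting interval is given, and no count model was run.

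A gene was tested if 3 or more libraries reached 1 TPM (12068 genes), with limma 3.58.1 (R 4.3.3), with a mean-variance trend, on log2(TPM + 1), which understates the change of low genes. P-values were Benjamini-Hochberg adjusted over all tested genes, with a threshold of 0.05. The fit was checked on simulated data. With 3 libraries against 3, an exact permutation test of a single gene cannot go below 0.1 and was not used. No gene set was tested.

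The members and gene lists were chosen with earlier results of these data known. Named genes were all members, other cathepsins above 0, and from each list any called gene, those with the lowest p (3) and the highest level (2), of which not all are described, plus the 5 genes nearest to Ctsb. M6pr, Tyr, the genes overlapping a member, and markers at or near 0 were named outside that rule. Positions came from GENCODE M21, matched by identifier for 51633 of 51912 genes. Promoter windows were RefSeq's. The active-site stretch of 1 member is not reported here. Alternatives were a pseudocount of 0.1, no filter, a 5 TPM filter, 3 other scalings, mitochondrial transcripts removed, no variance trend, array quality weights, and each library left out with the tested genes kept.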

Additional observations from a re-analysis of the deposited data

How the results depend on the processing

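The count of 0 called cathepsins was the same under all 15 alternatives, which by limma called 2 to 25 genes in all against 5. That count was 25 with array quality weights and 3 under quantile normalization, and 2 to 8 when a library was left out (8 without A10KO replicate 1, 2 without WT replicate 1 or 2, 3 without WT replicate 3). Tested cathepsins whose groups do not overlap numbered 3, against 1 under quantile normalization and 3 to 5 when a library was left out (5 without A10KO replicate 14 or WT replicate 1). The share of all genes placed so was 11.52%, against 9.21% under quantile normalization, 17.4% to 21.1% with an A10KO library left out and 14.2% to 15.9% with a WT library left out. The median log2 change over the tested members ranged from -0.57 to -0.31. The 8 members kept the sign of their log2 change under every alternative that tested them, except that Ctsd turned to 0.057 without A10KO replicate 13; its values ran from -0.228 to 0.057 when a library was left out. Ctsf was not tested under the 5 TPM filter. The cause of these differences was not tested. Unknown depth limits what can be said of Ctsk and Ctss near 0. No paired analysis was possible because the groups share a single replicate number.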
